A study of Mus musculus with 7 samples.

Results

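In all, 10 genes of bile acid synthesis and its control were followed in the livers of WT and SHIVA mice. They are the enzyme genes Cyp7a1, Cyp8b1, Cyp27a1, Cyp7b1, Cyp39a1 and Baat, the bile acid uptake carrier gene Slc10a1, and the nuclear receptor genes Nr1h4, Nr0b2 and Nr5a2. The members were chosen by name, as every non-control probe on the arrays that carries one of these symbols. This gave 10 of 36492 gene names and 12 of 55681 probes. All 12 probes were well above background on all 7 arrays, so no member was lost to the filter on dim probes. SHIVA is an ENU mouse line found by its low serum pantetheinase activity. Its mice are heterozygous for a dominant mutation in the DNA binding domain of Sox17, an endoderm transcription factor, and were backcrossed to C57BL/6. The sample titles name the WT and the SHIVA mice alike as B6, that is C57BL/6. The 3 WT and 4 SHIVA mice were female, 8 to 12 weeks old and fasted for 24 h, so both genotypes were measured only in the fasted state. Total liver RNA of each mouse was labelled with Cy3 and hybridised to 1 Agilent array, without pooling. Sox17 was mutated in the whole animal, so the comparison does not separate liver cells from the rest of the body.

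Bile acids are made from cholesterol in hepatocytes. In the classic pathway the first and rate-limiting step is taken by the enzyme of Cyp7a1, and that of Cyp8b1 adds the hydroxyl group that turns the product towards cholic acid. In the alternative pathway the mitochondrial enzyme of Cyp27a1 oxidises the side chain first, and the enzymes of Cyp7b1 and Cyp39a1 hydroxylate oxysterols. Baat joins the finished acid to taurine or glycine, and Slc10a1 brings acids back from portal blood. Bile acids bind the receptor encoded by Nr1h4 (FXR), which raises Nr0b2 (SHP), a receptor without a DNA binding domain that represses Nr5a2 (LRH-1) and thereby the synthesis genes. The comparison of WT with SHIVA livers asks whether these genes differ in the mutant after a fast.

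Some probe sequences are shown, of which only those of Slc10a1 bear on how a gene was read. One is the 60-base probe of Cyp8b1, the only member called, which lies at chr9:121824595-121824654 in the mm9 build named in the array files. The others are from the 2 probes of Slc10a1, whose differences between the genotypes were not alike: the whole probe at chr12:82061470-82061529, and bases 8 to 37 of the probe at chr12:82056539-82056598.
Cyp8b1 probe: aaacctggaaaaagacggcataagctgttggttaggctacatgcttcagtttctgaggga
Slc10a1 second probe: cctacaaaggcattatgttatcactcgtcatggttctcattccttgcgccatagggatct
Slc10a1 brighter probe, bases 8 to 37: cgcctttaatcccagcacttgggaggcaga

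The stretch of the brighter Slc10a1 probe is that of the mouse B1 repeat, a short element present in very many copies in the genome. The array files name RefSeq transcripts of 4 genes for this probe, namely Slc10a1, Med16, Spc24 and 4930402H24Rik. A run of 20 of its bases was found, on either strand, in 3 of 32851 RefSeq promoter windows (GRCm38.p6), against 0 for each of the other 11 member probes. Its signal is therefore given below as the signal of that probe and not as a level of Slc10a1.

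The sequences upstream of Cyp8b1 and Nr0b2 come from RefSeq (GRCm38.p6), and are shown because one gene was called and the other varied most between mice. Each is the 250 bases before the start site. In capitals for Cyp8b1 are CAAAGTCCA, the reverse complement of TGGACTTTG, a motif of the kind bound by Hnf4a, and CAAGGGCA, a match to CAAGGNCA, the motif of the kind bound by Nr5a2. For Nr0b2 the capitals mark CAAGGCCA, a match to the same motif, and TCAAGG. The latter is a separate, shorter motif, searched as a core of the Nr5a2 kind, that shares only CAAGG with the longer one.
Cyp8b1, chr9:121916306-121916555, minus strand: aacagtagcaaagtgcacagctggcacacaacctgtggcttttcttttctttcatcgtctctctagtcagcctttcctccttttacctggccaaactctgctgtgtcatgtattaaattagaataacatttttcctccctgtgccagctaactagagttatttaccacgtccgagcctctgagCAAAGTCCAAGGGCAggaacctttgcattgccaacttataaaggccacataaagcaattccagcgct
Nr0b2, chr4:133553126-133553375, plus strand: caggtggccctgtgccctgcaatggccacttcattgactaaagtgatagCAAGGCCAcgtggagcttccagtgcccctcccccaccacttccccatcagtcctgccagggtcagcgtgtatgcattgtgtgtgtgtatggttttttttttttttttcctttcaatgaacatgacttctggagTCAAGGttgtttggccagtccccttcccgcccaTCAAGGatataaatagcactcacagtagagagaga

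In Cyp8b1 the matches lie 67 to 59 and 60 to 53 bases before the start, so they overlap by 2 bases. In Nr0b2 the long match lies 201 to 194 bases before the start, and the short ones begin at 68 and at 35 bases. On both strands, CAAGGNCA was found in 5.53% of all 32851 windows of this length, TCAAGG in 12.5% and TGGACTTTG in 0.384%. ACAAT, the core of the motif of Sox proteins, was in 27.7% of windows, in that of Nr0b2 and not in that of Cyp8b1. The inverted repeat IR-1, of the kind bound by Nr1h4, was in 0.0850% of windows and in none of the 8 windows of members. These 8 windows belong to 6 members, since Cyp7a1, Cyp7b1, Cyp39a1 and Baat had no entry. A match is a description of letters and no evidence of binding.

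Signals below are log2 values after quantile normalization, and differences are SHIVA minus WT with the standard error (SE) and the Benjamini-Hochberg adjusted p of limma over all 20002 genes tested. Of those, 75 were called at an adjusted p under 0.05 (0.375% of genes), 38 lower (0.19%) and 37 higher (0.185%) in SHIVA. Among the members 1 of 10 was called, lower in SHIVA. At an unadjusted p under 0.05, 6 of 10 members passed, 5 lower and 1 higher, beside 13.3% of all genes. The values of WT and SHIVA mice did not overlap in 3 members, all lower in SHIVA, beside 6.02% of all genes that were lower and 6.14% that were higher without overlap. The median difference of the members was -0.26, and -0.43 with the second probe of Slc10a1, against -0.0074 over all genes tested. These counts and medians describe a list chosen with earlier results known.

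**Figure D1:**
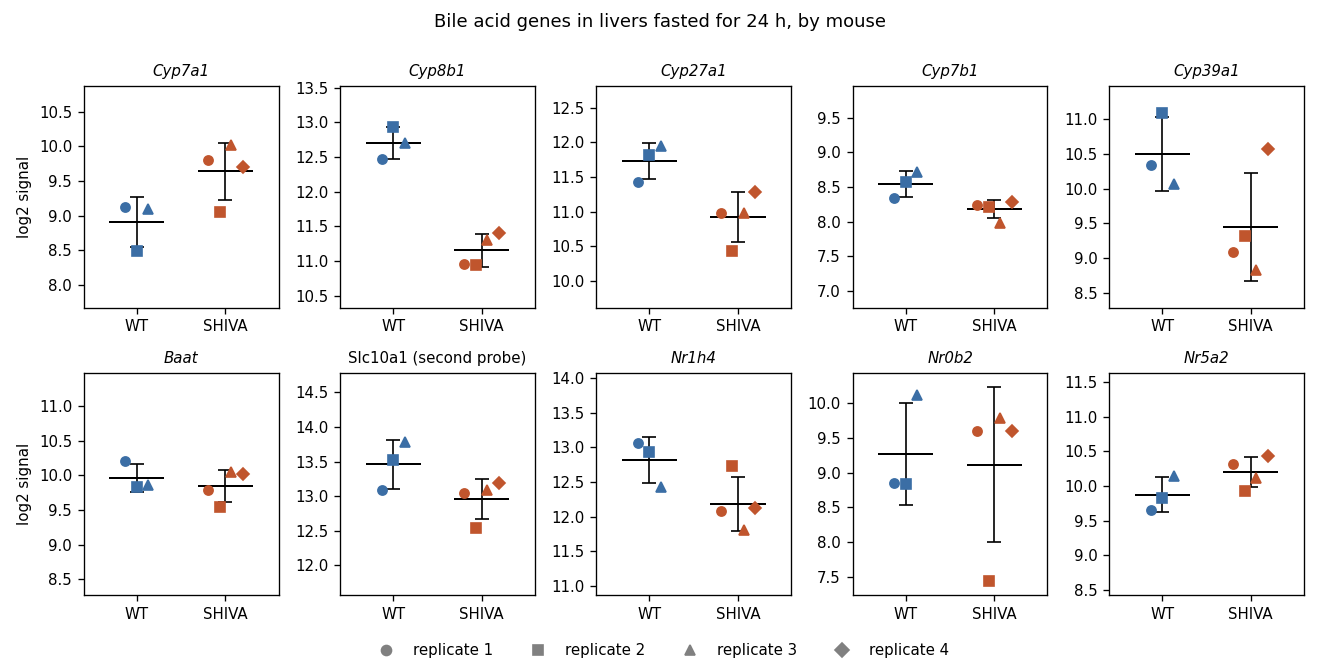
Log2 signal of each member in the 3 WT (blue) and 4 SHIVA (orange) mice, each panel spanning the same range of log2 units, with mean (line) and SD (bars) and a symbol per replicate number. Cyp8b1 stands apart by genotype, Cyp27a1 and Cyp7b1 do not overlap, and SHIVA replicate 2 is far below the others for Nr0b2. Slc10a1 is shown by its second probe.

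Cyp8b1, the sterol hydroxylase gene of the cholic acid branch of the classic pathway, was lower in every SHIVA mouse. Its signal was 12.47, 12.94 and 12.70 in the WT mice and 10.96, 10.93, 11.30 and 11.40 in the SHIVA mice. The highest SHIVA mouse was 1.07 below the lowest WT mouse. The difference was -1.55 (SE 0.18), which is 2.93-fold lower, with a 95% interval of -1.97 to -1.13 and an adjusted p of 0.022. It ranked 18 of all genes by p. Without a filter on dim probes the adjusted p was 0.0873. With an unpaired t-test, which the methods name in general and not for the arrays, it was 0.192. It was also above 0.05 without WT replicate 1 (0.102), WT replicate 2 (0.111), SHIVA replicate 1 (0.0676) and SHIVA replicate 3 (0.0536). The difference stayed between -1.67 and -1.44.

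Cyp7a1 went the other way. The WT mice read 9.13, 8.49 and 9.10 and the SHIVA mice 9.80, 9.06, 10.01 and 9.70, so 3 of 4 SHIVA mice were above all WT mice and SHIVA replicate 2 lay within their range. The difference was +0.74 (SE 0.26, 95% interval 0.15 to 1.33), 1.67-fold higher, and did not pass the threshold (adjusted p = 0.273). Within each liver the log2 signal of the Cyp8b1 probe less that of the Cyp7a1 probe was 3.34, 4.45 and 3.60 in WT and 1.16, 1.88, 1.29 and 1.70 in SHIVA. The groups did not overlap, and the means differed by -2.29 (SHIVA minus WT). This pair was chosen after the values were seen, so it has no test and only describes the 2 probes. Cyp8b1 alone already separated the groups. Cyp27a1 less Cyp7a1, computed in the same way, differed by -1.546, also without overlap.

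Cyp27a1, the sterol hydroxylase gene that opens the alternative pathway, was measured by 10 spots per array. It read 11.43, 11.82 and 11.94 in the WT mice and 10.98, 10.43, 10.98 and 11.29 in the SHIVA mice. No SHIVA mouse reached a WT mouse, but the gap between SHIVA replicate 4 and WT replicate 1 was small. The difference was -0.81 (SE 0.23), 1.75-fold lower, and did not pass the threshold (adjusted p = 0.204).

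Cyp7b1, an oxysterol hydroxylase gene, read 8.35, 8.58 and 8.72 in WT and 8.24, 8.21, 7.99 and 8.28 in SHIVA. The groups did not overlap, by a narrow margin. The difference was -0.37 (SE 0.15, adjusted p = 0.35).

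Cyp39a1 encodes another oxysterol hydroxylase. Its signal was 10.34, 11.09 and 10.07 in the WT mice and 9.09, 9.31, 8.83 and 10.57 in the SHIVA mice. SHIVA replicates 1 to 3 were below all WT mice, and SHIVA replicate 4 was above WT replicates 1 and 3. The difference was -1.05 (SE 0.42), 2.07-fold lower, with an adjusted p of 0.33. With 1 mouse left out it ran from -1.43 (without SHIVA replicate 4, adjusted p = 0.107) to -0.75 (without WT replicate 2, adjusted p = 0.702).

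Baat, the last enzyme before secretion, overlapped throughout, with 10.20, 9.83 and 9.86 in WT and 9.79, 9.55, 10.05 and 10.01 in SHIVA. The difference was -0.11 with a 95% interval of -0.52 to 0.29 (adjusted p = 0.835), which leaves room for a change of that size in either direction.

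Slc10a1, which encodes the sodium-dependent bile acid uptake carrier NTCP of the hepatocyte, was read by its second probe as 13.09, 13.52 and 13.78 in WT and 13.04, 12.54, 13.09 and 13.18 in SHIVA. SHIVA replicates 3 and 4 lay within the WT range, though replicate 3 only just. The difference was -0.50 (SE 0.22, adjusted p = 0.395 over all probes). The brighter probe with the B1 letters, which the rule of the highest mean chose for the gene, read 17.27, 17.27 and 17.01 in WT and 17.25, 17.13, 17.18 and 17.08 in SHIVA. It differed by -0.03 (SE 0.14, adjusted p = 0.959).

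Nr1h4, the gene of the bile acid receptor, read 13.06, 12.93 and 12.43 in the WT mice and 12.08, 12.73, 11.81 and 12.13 in the SHIVA mice. SHIVA replicates 1, 3 and 4 were below all WT mice and SHIVA replicate 2 was within their range. The difference was -0.63 (SE 0.25, adjusted p = 0.324), and -0.81 without SHIVA replicate 2 (adjusted p = 0.213). It was -0.50 without WT replicate 1 (adjusted p = 0.6) or without SHIVA replicate 3 (adjusted p = 0.532).

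Nr0b2 varied more between mice than any other member, over 2.68 log2 units. It read 8.86, 8.84 and 10.12 in WT and 9.61, 7.44, 9.80 and 9.61 in SHIVA. SHIVA replicate 2 was the lowest of all mice and WT replicate 3 the highest, and the genotypes overlapped. The difference was -0.16 (SE 0.59, adjusted p = 0.939), and +0.40 without SHIVA replicate 2 (adjusted p = 0.674). SHIVA replicate 2 also held the highest signal of Saa1, an acute phase gene, at 17.73, against 12.81, 11.44 and 13.18 in the WT mice and 13.97, 13.70 and 12.82 in the other SHIVA mice. The part of this in the result was not tested.

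Nr5a2 read 9.64, 9.83 and 10.14 in WT and 10.32, 9.93, 10.11 and 10.43 in SHIVA, with overlap. The difference was +0.33 (SE 0.18, adjusted p = 0.493), and +0.22 without WT replicate 1 (adjusted p = 0.729). A second, dimmer probe of Nr5a2 differed by +0.10 (SE 0.25, adjusted p = 0.908).

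Among the SHIVA mice, with Slc10a1 read by its second probe, replicate 2 was the lowest in 7 of 10 members and replicate 4 the highest in 6. All members were read in the same 7 livers, so their counts are not counts of independent observations.

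**Figure D2:**
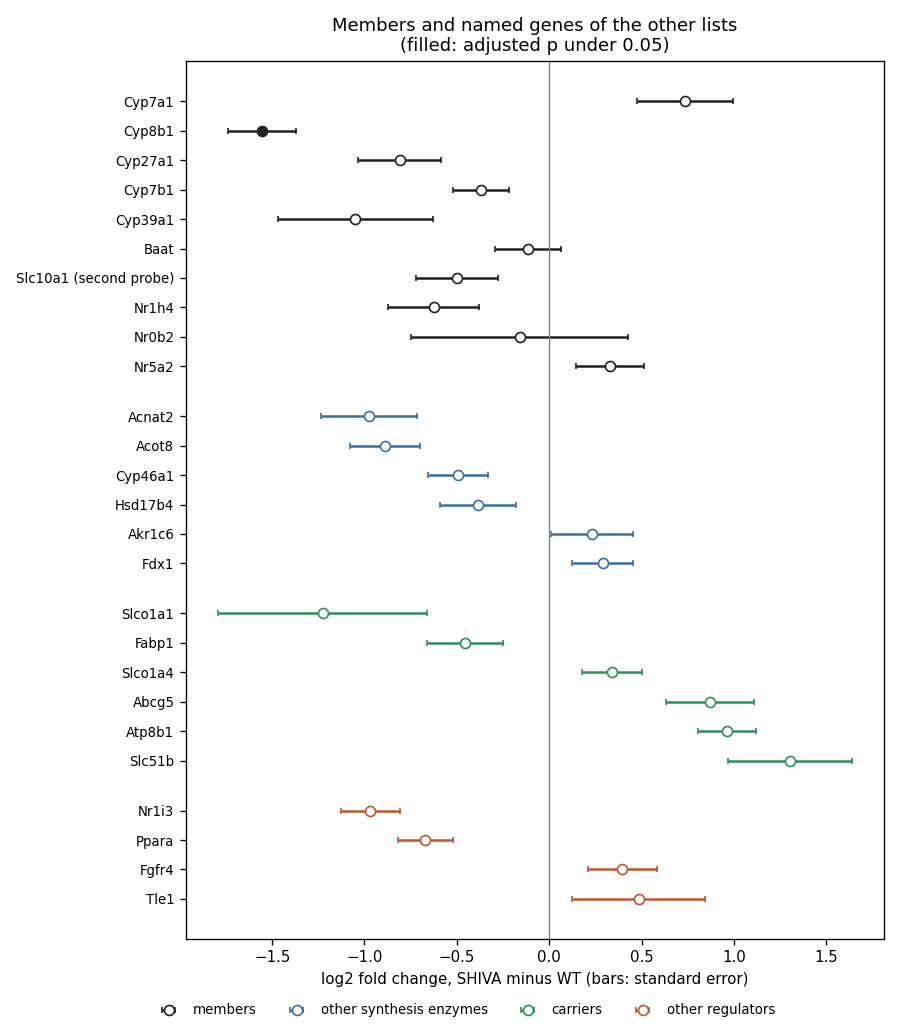
Log2 fold change (SHIVA minus WT, x axis) with its SE for the 10 members and the named genes of the other lists, by list. Cyp8b1, at -1.55, is the only filled point, that is the only one with an adjusted p under 0.05. Slc10a1 is its second probe, from the fit over all probes.

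The other genes of the pathway were 20 synthesis enzymes, 14 carriers and 22 regulators, 56 in all. Of these 52 were tested and 0 were called (limma), while 9 had an unadjusted p under 0.05, 3 higher and 6 lower, and in 10 the genotypes did not overlap, 4 higher and 6 lower. The unpaired t-test, with the same adjustment, called 0 of all genes tested, so its 0 here says nothing about these genes. It gave 8 of them an unadjusted p under 0.05, and the share over all genes was not counted for that test. Over all genes tested, 13.3% had an unadjusted limma p under 0.05. The background for no overlap is 12.2% of all genes, 6.02% lower and 6.14% higher. Ch25h, Slc51a and Fgf15 were too dim to test and Stard1 had no probe under this name.

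Of 18 enzymes tested, 4 were lower without overlap, beside 6.02% of all genes. Acot8, a peroxisomal thioesterase, read 10.62, 10.79 and 10.12 in WT and 9.54, 9.84, 9.48 and 9.63 in SHIVA, a difference of -0.89 (adjusted p = 0.121). Acnat2, an acyl-CoA amino acid transferase related to Baat, differed by -0.98 (adjusted p = 0.188), Cyp46a1, a cholesterol hydroxylase gene best known from brain, by -0.49 (adjusted p = 0.247), and Hsd17b4, of peroxisomal side chain oxidation, by -0.38 (adjusted p = 0.474), or by -0.13 without WT replicate 2. The largest positive differences were 0.29 for Fdx1, the ferredoxin that serves mitochondrial P450 enzymes, and 0.23 for Akr1c6, and both overlapped. Without WT replicate 2 they were 0.19 and -0.0027, and Akr1c6 was 0.49 without WT replicate 3.

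Of 13 carriers tested, 4 were higher without overlap, beside 6.14% of all genes. Atp8b1, a phospholipid flippase of the canalicular membrane, read 5.52, 5.61 and 5.73 in WT and 6.66, 6.43, 6.40 and 6.83 in SHIVA, a difference of +0.96 (adjusted p = 0.056). Slc51b, a subunit of the basolateral bile acid exporter, differed by +1.30 (adjusted p = 0.179), Abcg5, a subunit of the sterol exporter, by +0.87 (adjusted p = 0.195), and Slco1a4, an organic anion carrier, by +0.34 (adjusted p = 0.414). Slco1a1, an uptake carrier, differed by -1.23 (adjusted p = 0.401) and Fabp1, the liver fatty acid binding protein gene, by -0.46 (adjusted p = 0.39), both with overlap. The sizes of the dim carriers depended on the background correction. Slc51b differed by +0.65 with the mean signal or the authors' table and by +0.44 with normexp, Slco1a1 by -0.68 and by -0.49 (and by -0.75 without SHIVA replicate 2), and Atp8b1 by +0.71 and by +0.53.

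Of 21 regulators tested, 2 were lower without overlap, beside 6.02% of all genes. Nr1i3, the constitutive androstane receptor gene, read 13.04, 13.11 and 13.06 in WT and 11.89, 12.15, 11.98 and 12.39 in SHIVA, so its WT mice lay close together and all SHIVA mice were below them. The difference was -0.97 (adjusted p = 0.0547). Ppara, the receptor of the fasting response, differed by -0.67 (adjusted p = 0.132). Tle1, a corepressor, and Fgfr4, the receptor for the gut signal that represses Cyp7a1, differed by +0.48 (adjusted p = 0.616) and +0.40 (adjusted p = 0.408), with overlap. Without WT replicate 1 they were +0.28 and +0.25, and Tle1 was +0.82 without SHIVA replicate 2. None of these genes passed the threshold, so no direction is claimed for them.

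**Figure D3:**
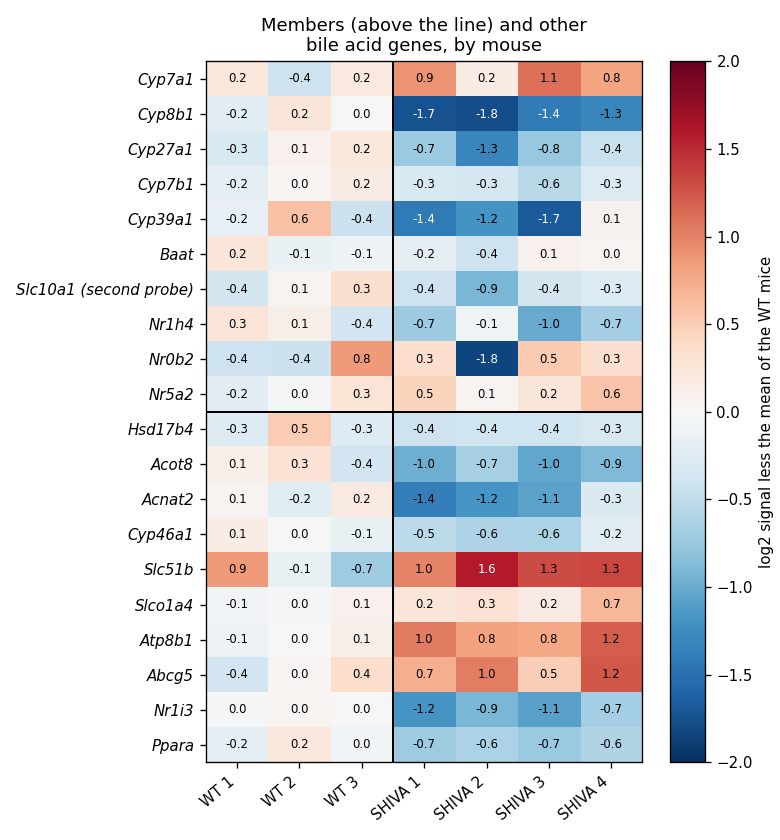
Log2 signal less the mean of the WT mice, for each mouse, for the members (above the line) and the 10 other bile acid genes whose genotypes did not overlap. Cyp8b1 is low in all 4 SHIVA mice, Cyp39a1 in SHIVA replicates 1 to 3, and Nr0b2 in SHIVA replicate 2.

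For the 3 members that varied most over the mice, the genes of nearest pattern were found by the mean absolute difference, over the 7 arrays, of log2 values less each gene's own mean. Nearest to Cyp8b1 were Ybx2 (0.13), Slc26a10 (0.14) and a transcript named only by an Ensembl identifier (0.17). Nearest to Cyp39a1 were Slc6a9 (0.22), Zfp605 (0.23) and LOC635075 (0.25). Nearest to Nr0b2 were another such transcript (0.16), Chmp4c (0.18) and a long noncoding locus (0.22). These neighbours of Nr0b2 were dim, at 3.34 to 5.71, 1.78 to 3.96 and 2.20 to 4.57 over the 7 arrays. Zfp605 was dim too, at 3.01 to 4.65.

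The liver label was checked by markers fixed for each cell type. Summed linear signal of 6 hepatocyte markers was 859000 to 925000 in WT and 851000 to 922000 in SHIVA. For bile duct markers, of which 4 of 6 were tested, the sums were 504 to 1530 and 451 to 801, for Kupffer cells 13600 to 27100 and 18000 to 40200, for sinusoidal endothelium 9080 to 9630 and 6800 to 9350, for stellate cells 215 to 350 and 275 to 302, and for blood 43400 to 61000 and 53400 to 99300. The sums overlapped between the genotypes in every one of these lists, but a sum of linear signal mostly follows its brightest markers. Limma called 0 markers, beside 0.375% of all genes. Ttr, Krt19 and Lyve1 had an unadjusted p under 0.05, beside 13.3% of all genes. Ttr and Des were lower without overlap, beside 6.02% of all genes. Of the bile duct markers, Krt7 (-0.81), Krt19 (-0.73) and Spp1 (-0.55) were lower and Sox9 (+0.60) higher, all with overlap. The bile duct markers Epcam and Cftr were too dim to test and Hbb-b1 of the blood list had no probe under this name. Of the pancreas list only Ctrb1 was bright enough, with a difference of +0.22 (adjusted p = 0.721). Of the intestinal list 3 of 4 markers were too dim to test. The other, Slc10a2, the apical bile acid uptake carrier gene, had a higher signal in all SHIVA mice, with a difference of +0.79 (adjusted p = 0.175). In whole liver RNA, fewer cells of a type and less RNA per cell cannot be told apart.

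Vnn1, the gene whose product the line was found by, had a lower signal in all SHIVA mice, with a difference of -1.54 (adjusted p = 0.132), the direction by which the line was found. Probes well above background were 44.5 to 46.3% of all in WT and 45.8 to 48.7% in SHIVA. All WT arrays lay in one row of the slide and all SHIVA arrays in the other, so slide position and genotype cannot be told apart.

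**Figure D4:**
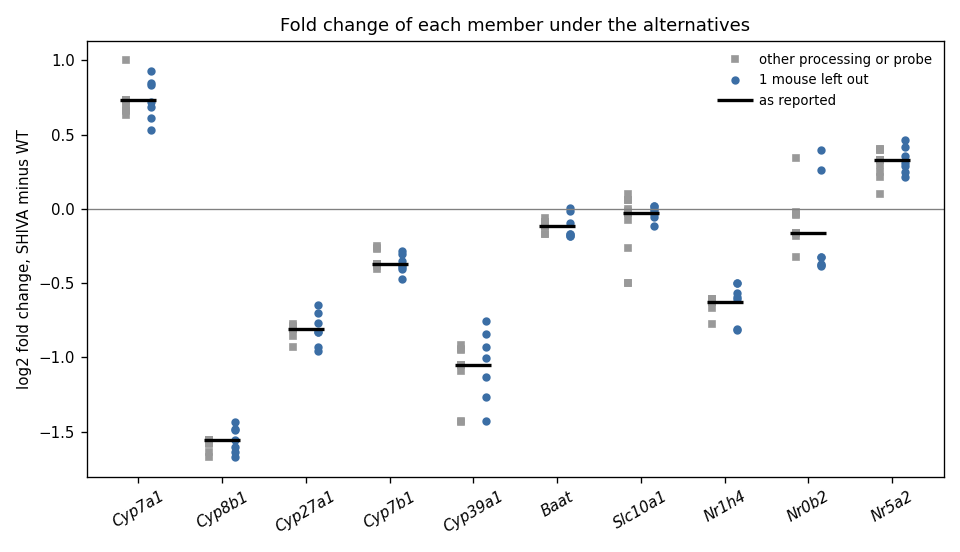
Log2 fold change (SHIVA minus WT) of each member as reported (bar), with other processing or another probe (squares), and with each mouse left out in turn (circles). Cyp8b1 stays between -1.67 and -1.44, while Nr0b2, Baat and the brighter, B1 repeat probe of Slc10a1 fall on both sides of 0. The second probe of Slc10a1 is the square at -0.50.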

How the data were processed

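The authors deposited the scanner output of 7 single-colour arrays, whose intensity values come from Agilent Feature Extraction 10.5.1.1, per the submitters' processing notes and the file headers, detrended in space and by a multiplicative fit, with surrogates in place of very low signals. Arrays were not normalized against each other at that stage. A deposited table of log2 values, made by quantile normalization in R per the methods, has the rank order of the mean signal on each array (rank correlation 1). Each array holds 62976 spots, 3671 of them controls, and 0 were saturated. Here the processed signal was log2 transformed, quantile normalized and averaged per probe, leaving out the 120 to 163 spots per array that the software marked. Names were updated through RefSeq (GRCm38.p6) accessions for 26407 probes. Each gene was read by its brightest probe on average, which had to be well above background on at least 3 arrays. Genotypes were compared in limma 3.58.1 (R 4.3.3) with empirical Bayes and Benjamini-Hochberg adjustment over all 20002 genes. An unpaired t-test with the same adjustment was an alternative. The methods name that test in general and not for the arrays. The code was tested on simulated data. Members and lists were chosen with earlier results of these data known. Named are all members, other list genes that were called, did not overlap or had the 2 largest rises or falls, and the 3 genes nearest in pattern to the 3 members of widest range. Vnn1 and Saa1 were added after their values were seen. Slc10a2 was on the fixed list of intestinal markers and was named singly after its value was seen. The number of arrays limits the precision.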

Additional observations from a re-analysis of the deposited data

Results flagged for a closer look

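Of 26 genes searched, 2 had a mouse far from the other SHIVA mice, with about 1.3 expected by chance. Nr0b2 read 7.443 in SHIVA replicate 2 against 9.61 to 9.80 in the other SHIVA mice, a gap of 0.919 of the group's range. Akr1c6 read 15.58 in the same mouse against 15.51 to 15.52 in the others, a gap of 0.894 of a range that was itself small.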

How the results depend on the processing

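Cyp8b1 was lower in SHIVA under every alternative run, from -1.67 to -1.44, but the call did not hold under all of them. The number of members called fell from 1 to 0 without a filter on dim probes (adjusted p = 0.0873), under the unpaired t-test (0.192, with 0 genes called of all tested) and with the replicate block (difference -1.64, adjusted p = 0.0557). The block takes SHIVA replicate 4 out of the difference, since no WT mouse has that number. With 1 mouse left out the number of members called was 0 to 1. No label says whether the replicate numbers pair the mice. The arrays themselves correlated at 0.972 to 0.9931. For the pairing, each gene's mean within its genotype was subtracted first. These deviations correlated at -0.0491, 0.0125 and 0.236 between samples of the same number, which cannot decide this. By the same measure WT replicate 3 was nearest to SHIVA replicate 3, while WT replicates 1 and 2 were nearest to SHIVA replicates of other numbers. The block took the genes called from 75 to 32. Beside the t-test's 0, genes called ranged from 13 without a filter to 269 with array weights, and from 3 (without WT replicate 1) to 415 (without WT replicate 3). Other bile acid genes called, 0 as reported, were 2 with the mean signal, 2 with the authors' table and 2 with a filter on all 7 arrays (Atp8b1 and Nr1i3 each time), 1 with normexp (Nr1i3), 4 with array weights (those and Acot8 and Ppara) and 0 to 3 with 1 mouse left out. The median of the members was -0.168 with normexp, -0.177 with the authors' table, -0.180 with the mean signal, -0.418 (without WT replicate 1) to -0.196 with 1 mouse left out and -0.433 with the second probe of Slc10a1, an alternative chosen after seeing the data. Of 182 differences of single members recomputed, 166 kept their direction and side of the threshold, 7 (all Cyp8b1) lost the call and 9 changed sign. Many of these could not change in size. The t-test, the filters on dim probes and the reported probe taken alone leave the difference as it was. The block gives the same difference as leaving out SHIVA replicate 4. The sign changed for Slc10a1's brighter probe with the mean signal (0.0616), normexp (0.0616) and the authors' table (0.103), and without WT replicate 1 (0.0177) or WT replicate 2 (0.0180), for Nr0b2 with array weights (0.342) and without WT replicate 3 (0.265) or SHIVA replicate 2 (0.398), and for Baat without WT replicate 1 (0.00617). With 1 mouse left out, these differences ran from -0.114 to 0.0180 for Slc10a1, from -0.387 to 0.398 for Nr0b2 and from -0.180 to 0.00617 for Baat. The cause was not tested.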
